A study of Mus musculus with 12 samples.

Results

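Quadriceps muscle was compared with WAT and liver in the RNA-seq data of mice that received narciclasine (ncls), a plant alkaloid, or vehicle (veh). The comparison used 9 of the 12 libraries of the series, 3 each from muscle, WAT and liver, and left out the 3 BAT libraries. Other organs, other libraries and elsewhere therefore mean WAT and liver in these Results. All mice were male C57BL/6J animals, 17 wk old at the end. Each organ had 1 library from NCD-veh mice (normal chow, vehicle), 1 from HFD-veh mice (high fat diet from 8 wk of age, vehicle) and 1 from HFD-ncls mice (the same high fat diet with ncls). Ncls at 1 mg/kg or vehicle was given weekly by gavage from 10 wk of age for 7 wk. The number of mice behind a library is not given in the sources used here, and each library is whole tissue. The 3 libraries of an organ differed in diet or treatment and were not replicates of 1 condition. A difference between organs could therefore be set against its spread over the 3 conditions, whereas a difference between conditions within muscle could not be tested. Of 22276 genes, 2902 had a level of at least 10 FPKM (sequenced fragments scaled to exon length and to the library's mapped total) in all 3 muscle libraries.

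Skeletal muscle fibres are packed with sarcomeres, in which myosin thick filaments pull on actin thin filaments anchored at the Z-disc. Contraction starts when a nerve signal at the neuromuscular junction spreads over an electrically excitable membrane and opens calcium release channels of the sarcoplasmic reticulum. Calcium binds troponin on the thin filament, and ATP is replenished from creatine phosphate, glycogen, glucose and fatty acids. For many of these steps fibres use their own member of a gene family, in place of the member that other cells use. Fast-twitch fibres rely more on glycolysis and slow-twitch fibres more on mitochondria, and the 2 kinds express separate sets of filament genes.

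Muscle libraries listed 9125 to 9361 genes at 1 FPKM or more, liver libraries 9628 to 9707 and WAT libraries 11775 to 12041. Read counts were not used here, and the steps between low FPKM values gave only rough relative depths, from 0.710 in HFD-ncls WAT to 1 in HFD-veh muscle. The muscle libraries also held transcripts of other cells. The 8 adipocyte marker genes summed to 348 to 395 FPKM in muscle and to 18490 to 28580 in WAT. The 7 hepatocyte marker genes with a value in all 9 libraries summed to 16.6, 320 and 7.69 FPKM in the muscle libraries (in the order NCD-veh, HFD-veh, HFD-ncls, kept for all sets of 3 values below), against 45690 to 50790 in liver. An eighth marker, albumin (Alb), was at 224 FPKM in HFD-veh muscle and at 0.329 in HFD-ncls muscle and had no value in liver. HFD-veh muscle thus carried the most liver transcripts, and HFD-veh liver in turn carried the most muscle transcripts. Over 11 fast-twitch genes, HFD-veh liver had 0.509 to 10.2 FPKM, a median of 0.0610% of the level in HFD-veh muscle, while 5 of the 11 were listed at 0 in each of the other liver libraries. Endothelial markers (4 genes) summed to 29.1 to 30.5 FPKM in muscle, fibroblast markers (5 genes) to 93.7 to 159, leukocyte markers (4 genes) to 15.7 to 24.4 and smooth muscle markers (3 genes) to 9.72 to 15.6, all below WAT. In whole tissue, fewer cells of a type and less RNA per cell cannot be told apart.

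Organ differences were computed as mean log2(FPKM + 0.1) and tested with limma, with diet and treatment as a block, over 13537 genes. A gene was called at a Benjamini-Hochberg adjusted p under 0.05 and a difference of at least 2-fold. Muscle was called higher than WAT for 1226 genes (9.06% of those tested) and lower for 7376 (54.5%). Against liver, 3124 genes (23.1%) were higher and 3842 (28.4%) lower. Muscle was higher than both organs for 1014 genes (7.49%) and lower than both for 2842 (21.0%). Far more genes were thus lower than higher in muscle against WAT, and the median difference over all genes tested was -1.21 on the log2 scale against WAT and -0.09 against liver. This imbalance depended on the scaling. After the libraries were rescaled by the median ratio of their genes, which moved the WAT difference by 0.85 and the liver difference by 0.09, 2311 genes were higher and 5062 lower than in WAT. Rescaling to an equal sum changed the liver split to 4476 higher and 3096 lower. Among the 2902 genes at 10 FPKM or more in muscle the median differences were 0.06 against WAT and 0.70 against liver, and 1018 of them lay within 2-fold of both organs.

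A subset of 289 genes was at least 8-fold above the mean of WAT and the mean of liver. These genes, called muscle-enriched here, were 9.96% of the genes at 10 FPKM and 2.13% of all genes tested. The differences chose them, so their sizes are a description. In 206 genes both differences were at least 32-fold, and in 37 at least 1024-fold. The median of the lesser difference was 7.15 on the log2 scale, with quartiles of 4.64 and 8.78. In all 289 genes the lowest muscle library lay above the highest WAT or liver library, which the rule favours since it was set on the same values. WAT was the nearer organ for 222 genes and liver for 63. The sum of FPKM held by these genes was 56.3%, 55.4% and 55.0% in the muscle libraries, 0.413% to 0.599% in WAT and 0.0535% to 0.0754% in liver.

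**Figure D1:**
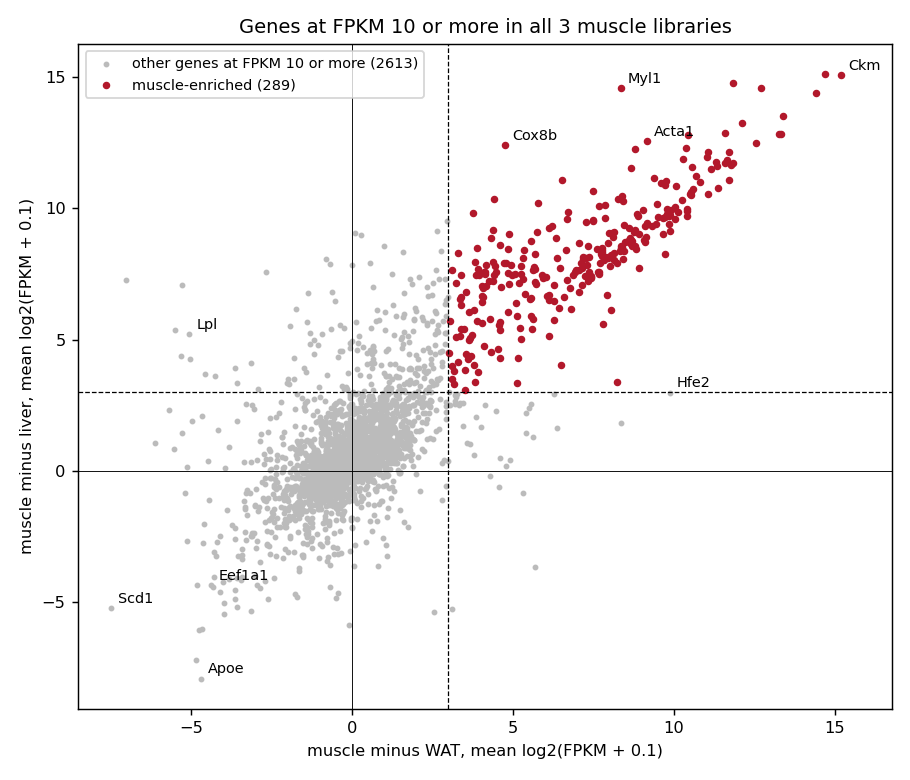
Each point is 1 of the 2902 genes at 10 FPKM or more in all 3 muscle libraries, placed by its difference from WAT (x axis) and from liver (y axis) in mean log2(FPKM + 0.1), with dashed lines at 3 (8-fold). The 289 muscle-enriched genes in red fill the upper right quadrant up to Ckm, while Lpl and Scd1 lie left of 0, below their WAT level.

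Of the 15 genes with the largest lesser differences, 10 were on the list of fast-twitch fibre genes. Muscle creatine kinase (Ckm, which regenerates ATP from creatine phosphate) was at 16456, 16147 and 15744 FPKM in muscle. In WAT its level was 0.433, 0.186 and 0.409 FPKM, and in liver it was listed at 0, 10.3 and 0. The lesser difference of Ckm was 15.06 ± 1.48 (SE) on the log2 scale, and only 1 liver library listed it above 0. With a pseudocount of 1 this difference was 12.81, since its size rests on values near 0. The rest of the 15 were Tnnt3 and Tnni2 (fast troponins T and I), Tnnc2 (fast troponin C), Atp2a1 (the calcium pump of the sarcoplasmic reticulum), Tcap (a titin cap), Mylpf and Myh1 (a light and a heavy chain of fast myosin), Myh8, Mybpc2 (fast myosin-binding protein C), Myoz1 and Actn3 (Z-disc proteins of fast fibres), Pvalb (parvalbumin, a calcium buffer), Ampd1 (AMP deaminase) and Pgam2 (a glycolytic mutase). Their lesser differences ran from 14.69 for Tnnt3 to 11.6 for Mybpc2. Apart from Myh8, each of them belonged to a function list described below. Myh8 encodes a perinatal myosin and was listed at 448, 432 and 508 FPKM. Myosin heavy chain genes are near-identical over long stretches, and how fragments were shared among them is uncertain.

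Skeletal actin (Acta1) had the highest level of all genes in each muscle library, at 24220, 22749 and 23146 FPKM. It lies on chromosome 8 at chr8:126415669-126418651 (mm9, minus strand). In WAT its level was 30.7, 55.2 and 40.2 FPKM, and in liver 1.58, 15.4 and 2.16. All 12 defining fibre genes were separated from every WAT and liver library. They are known fibre markers and all belong to the 289 muscle-enriched genes, every one of which was separated in this way. Their separation is therefore a description and no further support. The lowest of the 12 in muscle was titin (Ttn), the giant spring protein of the sarcomere, at 112, 87.9 and 108 FPKM, and the muscle libraries of each gene lay close together relative to the gap.

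**Figure D2:**
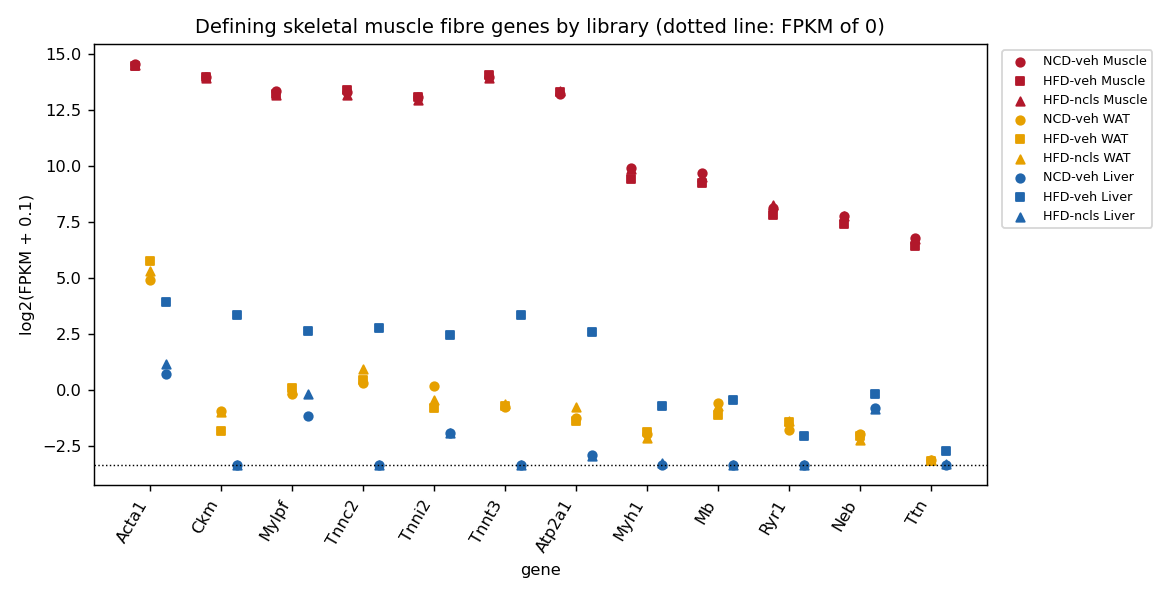
Level of 12 defining skeletal muscle fibre genes as log2(FPKM + 0.1) in each of the 9 libraries, with colour for the organ, shape for diet and treatment, and a dotted line at an FPKM of 0. All muscle points lie above all WAT and liver points of the same gene, and HFD-veh liver (blue squares) lies above the other liver libraries.

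Upstream sequences of 4 genes are printed to give the sequence context of the most abundant muscle transcript, of the gene with the largest difference, and of a pair of adjacent fast myosin genes. They are the 250 bases before the annotated start (RefSeq, GRCm38.p6), written 5′ to 3′ on the gene's strand. Capitals mark matches to the CArG box (bound by serum response factor), to the MEF2 motif (bound by the MEF2 family) and to TATAAA. Ckm lies at chr7:19410844-19411093 (plus strand), Acta1 at chr8:123894776-123895025 (minus strand), Myh1 at chr11:67199852-67200101 (plus strand) and Myh4 at chr11:67237562-67237811 (plus strand).
Ckm: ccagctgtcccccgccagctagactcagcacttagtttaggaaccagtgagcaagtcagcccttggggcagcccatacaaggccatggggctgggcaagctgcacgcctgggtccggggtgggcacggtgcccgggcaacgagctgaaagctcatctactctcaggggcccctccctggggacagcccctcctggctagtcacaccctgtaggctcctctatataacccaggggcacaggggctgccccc
Acta1: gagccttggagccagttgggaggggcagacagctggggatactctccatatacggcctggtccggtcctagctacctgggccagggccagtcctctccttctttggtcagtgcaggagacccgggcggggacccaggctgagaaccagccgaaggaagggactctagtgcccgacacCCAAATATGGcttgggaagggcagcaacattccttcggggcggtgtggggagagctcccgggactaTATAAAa
Myh1: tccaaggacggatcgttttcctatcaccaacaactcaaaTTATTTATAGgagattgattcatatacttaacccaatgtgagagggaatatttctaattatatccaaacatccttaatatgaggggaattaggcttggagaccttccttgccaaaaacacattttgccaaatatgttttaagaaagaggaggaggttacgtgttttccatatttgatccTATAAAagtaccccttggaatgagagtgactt
Myh4: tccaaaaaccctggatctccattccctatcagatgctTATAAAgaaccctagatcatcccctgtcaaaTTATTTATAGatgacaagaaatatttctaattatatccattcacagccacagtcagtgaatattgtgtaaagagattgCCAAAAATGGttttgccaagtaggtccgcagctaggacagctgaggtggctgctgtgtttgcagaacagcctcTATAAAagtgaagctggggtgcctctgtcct
Acta1 had a CArG match that began 73 bases before the start and a TATAAA match at 7 bases. Myh1 had a MEF2 match at 211 bases and TATAAA at 32 bases. Myh4, the gene of the fastest myosin heavy chain, had the same 10 letters at its MEF2 match at 182 bases, a CArG match at 104 bases and TATAAA at 213 and 31 bases. None of the 3 motifs was found in the Ckm stretch, which says only that these letters are not in this window.

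The same search covered the promoters of the 289 genes that are in the RefSeq table, 210 genes with 273 promoters. Matches of different motifs may overlap. A MEF2 match on either strand was found in 11% of them, in 1.49% of 2610 promoters of the other genes at 10 FPKM in muscle and in 2.92% of all 32851 promoters. CArG matches on either strand were found in 2.93%, 1.42% and 1.47% of these sets. TATAAA, read on the gene's strand only, was in 8.79%, 3.18% and 7.59%. The E-box CANNTG was in 73.3%, 57.0% and 66.2%, and the MCAT motif CATTCC on either strand in 14.7%, 10.2% and 12.6%. The median number of CG dinucleotides per 250 bases was 6 for muscle-enriched genes, 17 for the other genes at 10 FPKM and 6 for all promoters. Of these motifs, MEF2 had the highest ratio of its share in muscle-enriched genes to its share in all promoters. A match is a description of letters, and binding was not measured.

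Genes of 14 muscle function lists were counted next, 206 genes of which 198 were tested. Of these, 169 were called higher in muscle than in both WAT and liver, against the 7.49% of all genes given above. The median differences of the lists together were 6.40 against WAT and 7.90 against liver, beside -1.21 and -0.09 over all genes. Without the 3 HFD-veh libraries, 169 genes were again called higher than both, with medians of 6.52 and 7.93. The lists differed from each other in how completely they were muscle-enriched, from all 12 genes of fibre protein turnover to 2 of the 12 tested genes among myokines. The 289 genes included 124 of these list members.

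The thick filament genes were higher than both organs in 13 of 14 tested, with medians of 10.39 and 10.77 on the log2 scale. Fast myosin heavy chain Myh1 was at 957, 683 and 936 FPKM in muscle, at most 0.173 in WAT and at most 0.509 in liver. Its difference was 11.71 ± 0.59 (SE) from WAT and 12.15 ± 0.59 from liver. The muscle libraries of Myh1 did not overlap with any other library, which the rule favours since Myh1 is muscle-enriched. Myh1 is also among the genes named above for the largest lesser differences. Its difference and separation are therefore a description and no further support. The exception in the list was Myom3, a myomesin of the M-band, at 2.37, 1.06 and 2.74 FPKM in muscle and 1.02, 1.09 and 1.46 in WAT. Myh4 could not be tested, since it had no value in any muscle library, although it was listed at 4.82 FPKM in HFD-veh liver and at 0 in the other liver libraries. It was the only gene with a value in all 6 WAT and liver libraries and none in any muscle library.

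Thin filament genes were higher than both organs in 14 of 16 and made up 20.3%, 20.7% and 19.8% of summed FPKM in muscle, the largest share among the lists as measured. The thick filament sum set beside it lacks Myh4, which had no value in muscle. With 1 library left out, 12 to 14 of the 16 thin filament genes were called. Calls lost in such fits were those of the slow troponins Tnni1 and Tnnt1, at most 2.18 and 3.29 FPKM in muscle. Tropomyosin Tpm1 reached 11299, 13466 and 10953 FPKM, with 61.0 to 73.5 in WAT and 13.2 to 19.6 in liver. Tpm3, a tropomyosin of slow fibres and non-muscle cells, was the only gene of the list called lower than both, at 7.15, 7.72 and 8.42 FPKM in muscle against 87.6 to 128 in WAT and 30.1 to 39.0 in liver. Its differences were -3.81 ± 0.11 and -2.10 ± 0.11. Slow troponin C (Tnnc1) was not called, at 4.64, 0.211 and 4.56 FPKM in muscle and 0.939 to 4.08 in liver, so that muscle and liver overlapped. Z-disc, titin and cytoskeleton genes were higher than both in 25 of 26. Desmin (Des, the intermediate filament of muscle) was at 1360, 1380 and 1253 FPKM in muscle and at 11.4 to 15.9 in WAT. The list's exception was Csrp3, a Z-disc protein with LIM domains, which was higher in liver (22.9, 22.4 and 19.7 FPKM) than in muscle (9.29, 4.85 and 14.6), with a difference of -1.30 ± 0.43 (adjusted p = 0.029 by limma with Benjamini-Hochberg adjustment). This call was lost without NCD-veh liver (adjusted p = 0.11), HFD-veh liver (0.12), HFD-veh muscle (0.12) or HFD-ncls muscle (0.058), by limma.

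All 20 genes of excitation-contraction coupling and calcium handling were higher in muscle than in both organs, with medians of 8.57 and 10.21. The calcium release channel Ryr1 was at 279, 226 and 311 FPKM in muscle, 0.194 to 0.291 in WAT and 0 to 0.143 in liver. Its voltage sensor Cacna1s was at 177, 185 and 203 FPKM, and the linker Stac3 at 82.7, 114 and 98.4. In none of the 3 genes did muscle overlap with another organ, which the rule favours since all 3 are muscle-enriched. Calsequestrin (Casq1), which holds calcium inside the store, was at 1866, 2091 and 1862 FPKM in muscle and at 0.341, 2.16 and 2.87 in WAT. Sarcolipin (Sln), a regulator of the calcium pump, was the lowest of the list in muscle, at 1.63, 0.997 and 0.788 FPKM.

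Genes of membrane excitability were higher than both organs in 8 of 10, and all 10 were higher than liver. The muscle sodium channel Scn4a was at 95.5, 94.0 and 112 FPKM and the chloride channel Clcn1 at 38.6, 38.8 and 36.8, both under 0.11 FPKM in every other library. At the neuromuscular junction, 8 of 9 tested genes were higher than both, but at far lower levels. The adult acetylcholine receptor subunit Chrne was at 10.1, 10.1 and 8.88 FPKM, the receptor clustering protein Rapsn at 11.5, 13.4 and 11.8, and acetylcholinesterase (Ache) at 17.4, 18.0 and 14.5. The fetal subunit Chrng was at 0.0214, 0.0204 and 0 FPKM. Lrp4, the agrin receptor, was lower than in liver by 1.94 on the log2 scale (SE 0.26).

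Myogenic transcription factors were higher than both in 12 of 14 tested. Myf6 was the highest of the MyoD family, at 57.1, 53.2 and 51.7 FPKM, followed by Myod1 at 9.72, 13 and 11 and Myog at 1.15, 1.48 and 1.34. Myod1 and Myog were listed at 0 in all 6 WAT and liver libraries. Both are counted among the 12, but the size of their difference is set by the pseudocount and is not given. Mef2c, one of the MEF2 family, was at 89.8, 96.5 and 90.9 FPKM in muscle, against 4.65 to 5.5 in WAT. Mef2a was shared with WAT (16.3, 10.3 and 15.7 FPKM in muscle, 14 to 15.4 in WAT), with a difference of -0.07 ± 0.24. The satellite cell markers Pax7 and Myf5 were detected at 0.163 to 0.393 and 0.168 to 0.450 FPKM in muscle and listed at 0 in the other organs.

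Of 23 genes of glycogen breakdown and glycolysis, 20 were higher than both organs and 11 were muscle-enriched. Muscle glycogen phosphorylase (Pygm) was at 3417, 3115 and 3195 FPKM in muscle, 1.34 to 1.45 in WAT and 0.281 to 2.13 in liver, a difference of 11.07 ± 0.52 and 12.13 ± 0.52. Glycolytic genes used by every organ differed less. Gapdh was at 2023, 1578 and 1664 FPKM in muscle, with differences of 3.21 ± 0.19 from WAT and 2.55 ± 0.19 from liver, and Ldha had differences of 1.75 ± 0.13 and 1.87 ± 0.13. Not called against both were Gpd1 (glycerol phosphate dehydrogenase), Pfkfb1 and Slc2a4. Slc2a4, the insulin-responsive glucose transporter, was at 180, 144 and 142 FPKM in muscle and 60.5, 48.6 and 46.7 in WAT. Its groups did not overlap, and muscle stood above WAT in each condition. The test gave 1.58 ± 0.71 with an adjusted p of 0.076 by limma with Benjamini-Hochberg adjustment. The 3 organs share 1 error in the fit, so its liver values near 0 (0.0149, 0.888 and 0.886 FPKM) enter this SE. All 7 phosphagen and purine nucleotide cycle genes were higher than both. Ampd1 was at 446, 576 and 420 FPKM and mitochondrial creatine kinase Ckmt2 at 546, 343 and 408, with at most 0.191 and 0.159 FPKM in any WAT or liver library.

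Muscle isoforms of oxidative metabolism were higher than both organs in 10 of 12. Myoglobin (Mb), which stores oxygen, was at 839, 609 and 745 FPKM in muscle and at most 0.640 in any other library. The cytochrome oxidase subunit Cox6a2 was at 1520, 1598 and 1530 FPKM, while Cox8b, with 1112, 1152 and 1063, was also present in WAT at 26.1, 60.4 and 43.4. The 2 exceptions were the genes of fatty acid uptake from blood. Lipoprotein lipase (Lpl) was at 91.6, 61.9 and 86.8 FPKM in muscle against 2499, 2722 and 2701 in WAT, a difference of -5.06 ± 0.19. The fatty acid transporter Cd36 was at 39.9, 35.7 and 52.6 against 970, 1164 and 1068, a difference of -4.65 ± 0.39. Both were higher in muscle than in liver. WAT and muscle libraries of these 2 genes did not overlap, and adipocyte markers were highest in WAT. In BAT, which was left out of the test, the 12 genes summed to 8623, 10350 and 11220 FPKM. Their sums in muscle were 7500, 6740 and 7287 FPKM. These sums include Lpl and Cd36, and the list is described here only against WAT and liver.

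The dystrophin complex and sarcolemma list was mixed, with 11 of 19 genes higher than both organs, where 7.49% of all genes were. Its median against WAT was 1.28, beside -1.21 over all genes. Sarcoglycans alpha and gamma were muscle-enriched, with Sgca at 100, 108 and 104 FPKM and at most 0.106 in WAT and liver. The membrane repair genes Trim72 (55.5, 61.1 and 56.9 FPKM) and Ano5 (21.1, 19.1 and 22.3) were also near 0 in WAT and liver. Dystrophin itself (Dmd) was at 3.81, 3.82 and 4.15 FPKM, 1.48 ± 0.23 above WAT on the log2 scale. Lower than in WAT were 5 of the 19 genes (Sgcd, Sntb1, Lama2, Itga7 and Utrn), where 54.5% of all genes were. Utrophin (Utrn), the dystrophin relative of non-muscle membranes, was at 0.888, 0.869 and 1.10 FPKM in muscle and 39.3, 34.1 and 27.8 in WAT, a difference of -5.00 ± 0.21. Sntb1, a syntrophin, was lower than in both organs.

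Every one of the 12 genes of fibre protein turnover was higher than both organs and muscle-enriched. The ubiquitin ligases Trim63 (112, 98.7 and 128 FPKM) and Fbxo32 (105, 54.0 and 120) are known for their part in muscle wasting. Trim63 was under 0.06 FPKM in all WAT and liver libraries, and Fbxo32 was at 1.84 to 3.29 in WAT. All 4 tested genes of muscle isoforms of translation were higher as well. The elongation factor Eef1a2 was at 822, 754 and 777 FPKM and the ribosomal protein Rpl3l at 336, 310 and 317. Mbnl1, a splicing regulator of this list, had no value in HFD-veh muscle and was not tested. Of myokines and growth control genes, 5 of 12 tested were higher than both, 5 were lower than WAT and 2 of these were also lower than liver, where 7.49% and 54.5% of all genes were higher than both and lower than WAT. Myostatin (Mstn), which restrains muscle growth, was at 24.1, 27.1 and 22.2 FPKM in muscle and 0.0177, 1.53 and 1.28 in WAT. Fndc5, the irisin precursor, was at 25.9, 13.8 and 18.4 FPKM. Igf1 was lower than both, at 2.77, 2.41 and 2.40 FPKM in muscle against 59.0 to 67.7 in WAT and 151 to 167 in liver. The median of the myokine list against WAT was -0.22 and turned to 0.59 after rescaling by the median ratio.

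The functional make-up of the muscle transcriptome was nearly the same in the 3 libraries. After the thin filament, the largest lists were calcium handling (7.36%, 7.83% and 7.74% of summed FPKM), glycolysis (7.98%, 6.94% and 7.15%), the thick filament (6.96%, 6.59% and 6.49%) and the phosphagen system (5.15%, 5.05% and 5.03%). The thick filament share and its place among the lists do not include Myh4. The neuromuscular junction held 0.0169%, 0.0176% and 0.0159%. The order of the lists by share differed in 2 places, between the neuromuscular junction and the myokines at the low end and between glycolysis and calcium handling, where glycolysis was ahead in the library of NCD-veh mice and calcium handling in the other two. The 10 genes of highest level (Acta1, Tnnt3, Ckm, Pvalb, Tpm1, Aldoa, Atp2a1, Tnnc2, Myl1 and Mylpf) alone held 36.6%, 37.0% and 35.8%. Without them, muscle-enriched genes held 31.1%, 29.2% and 30.0% of the remaining sum. No test was possible between the libraries.

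**Figure D3:**
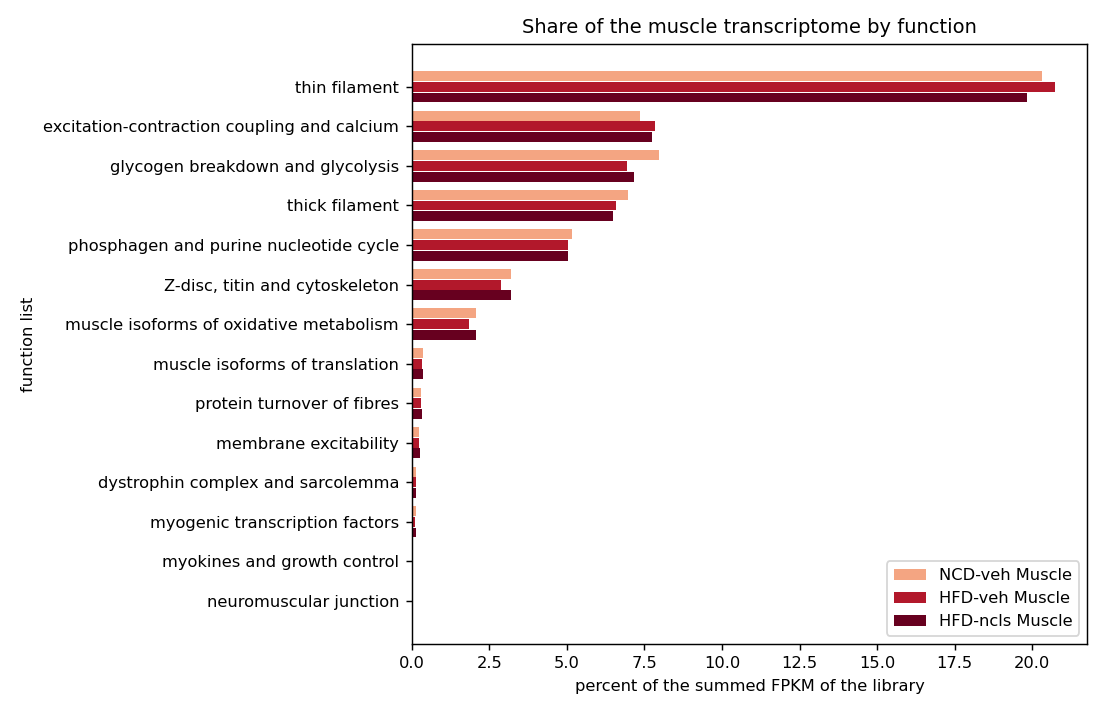
Bars give the percent of the summed FPKM held by each of the 14 function lists in each muscle library, without error bars. The thin filament stands at 19.8% to 20.7%, calcium handling, glycolysis and the thick filament at 6.49% to 7.98%.

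Gene pairs showed how far muscle used its own member of a family. FPKM is a level per length, so the members of a pair can be set side by side, and the share of the muscle form was computed for 33 pairs. One member of each pair was named the muscle form beforehand, with earlier results of these data known. A share over 50% in muscle was therefore nearly fixed in advance. The share was over 50% in all 3 muscle libraries for all 33 pairs, and over 95% for 26. In 19 pairs it was under 50% in all 6 WAT and liver libraries, and 12 pairs had a WAT library over 50%. Of the 33 pairs, 4 set a fast against a slow filament gene (Tnni2 and Tnni1, Tnnc2 and Tnnc1, Tnnt3 and Tnnt1, Myh1 and Myh7), with shares in WAT and liver that rest on values near 0. Without these 4, 8 of 29 pairs had a WAT library over 50% and 22 were over 95% in muscle. Pygm took over 99.9% of phosphorylase FPKM in muscle, 1.99% to 3.27% in WAT and 0.252% to 1.47% in liver, where Pygl is the liver form. The share of Pfkm over Pfkl (phosphofructokinase) was 99.8% to 99.9% in muscle, 16.4% to 26.2% in WAT and 36.3% to 40.9% in liver. Eef1a2 took 93.6%, 90.9% and 91.1% of the elongation factor pair in muscle and at most 0.0580% elsewhere. These 3 pairs separated muscle from both organs.

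Some pairs were used alike in muscle and WAT. Slc2a4 took over 98% of its pair with Slc2a2 in both muscle and WAT, and at most 0.879% in liver. Aldoa took at least 99.0% in muscle and WAT against 2.13% to 4.33% in liver. Ldha was the main form everywhere, at 95.3% to 97.3% in muscle, 82.5% to 90.6% in WAT and 99.4% to 99.5% in liver. The creatine kinase pair was 0% Ckm in NCD-veh and HFD-ncls liver and 89.1% in HFD-veh liver, the library with muscle transcripts. With that library left out, 20 pairs in place of 19 were under 50% in all WAT and liver libraries. The smallest muscle shares were those of Fabp3 over Fabp4 (56.3%, 52.4% and 61.5%), where Fabp4 is an adipocyte marker, and of the AMPK subunit Prkag3 over Prkag1 (68.4%, 78.7% and 65.8%). The largest spread over the 3 muscle libraries was 15.5 percentage points, for Fbp2 over Fbp1, at 99.9%, 84.5% and 100%. Fbp1 is the liver form, and HFD-veh muscle was the library with liver transcripts, whose part in this share was not tested.

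**Figure D4:**
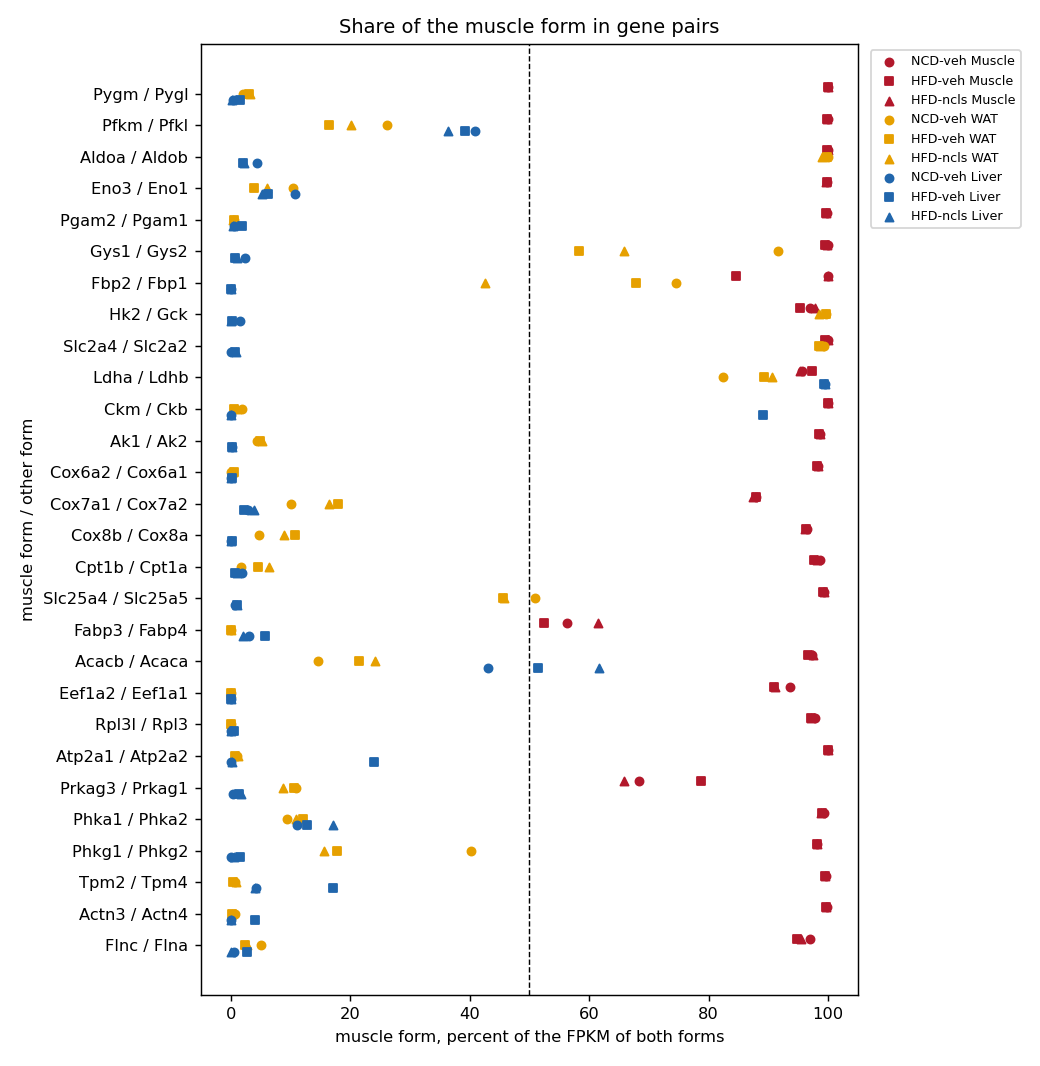
The x axis gives the percent of the FPKM of both forms that belongs to the muscle form, for most of the 33 gene pairs (y axis) in each of the 9 libraries, without the 4 pairs of fast and slow filament genes. All muscle points lie right of the dashed line at 50%, and the HFD-veh liver point of Ckm lies at 89.1%, apart from the other liver points.

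The spread of the muscle-enriched genes over diet and treatment was described next. The rule asks for 10 FPKM in each muscle library and so leaves out genes that were lower in 1 of them, such as Dusp26, which limits the ranges it can show. The range of log2(FPKM + 0.1) over the 3 muscle libraries had a median of 0.28 and quartiles of 0.16 and 0.44. It was under 0.5 for 232 genes (80.3%) and over 1 (2-fold) for 10 genes (3.46%). The other 2613 genes at 10 FPKM in muscle had a median range of 0.19, and 19 of them (0.727%) were over 2-fold, a smaller share than among the muscle-enriched genes. With the level set on the mean of the 3 muscle libraries in place of each, 301 genes passed, with a median range of 0.285 and 14 (4.65%) over 2-fold. By the same rule, 518 WAT-enriched genes had a median range of 0.56 over the 3 WAT libraries, with 92 (17.8%) over 2-fold, and 503 liver-enriched genes 0.45, with 54 (10.7%) over 2-fold. Over these genes the median of HFD-veh minus NCD-veh was -0.02, that of HFD-ncls minus HFD-veh -0.02 and that of HFD-ncls minus NCD-veh -0.04, and 87.5%, 87.2% and 92.4% of the genes lay within 1.4-fold. Ranges depend on 1 library per condition, and how much of them is variation between animals cannot be told apart from diet and treatment.

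Steady genes included the most abundant ones. Acta1, Tnnt3, Ckm, Pvalb and Aldoa were the 5 genes of highest FPKM with a range under 0.2, and Aldoa, a glycolytic aldolase, was at 11787, 10722 and 10739 FPKM. Mybpc2 at 1620, 1642 and 1656 FPKM was steady too, with a range of 0.03. The 10 genes over 2-fold were Actc1, Pdk4, Mybph, Nmrk2, H19, Smox, Chac1, Fbxo32, Lmod2 and Prkag3. Cardiac actin (Actc1) had the widest range, at 642, 146 and 407 FPKM, a range of 2.13. Since Acta1 and Actc1 are near-identical in their coding parts, how fragments were shared between them is uncertain. Pdk4, which shuts glucose carbon out of the mitochondria, was at 404, 122 and 415 FPKM. HFD-veh muscle was the lowest of the 3 for both, and also for H19, an imprinted RNA (107, 47.6 and 69.3), and for Fbxo32 and Lmod2, an actin nucleator (36.0, 21.3 and 45.5).

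HFD-veh was instead the highest library for Mybph, a myosin-binding protein (148, 253 and 91.5 FPKM), and for Prkag3 (42.3, 76.9 and 36.5). Smox, spermine oxidase, was highest in NCD-veh (342, 152 and 160) and Chac1, a glutathione-degrading enzyme, in HFD-ncls (48.8, 40.8 and 91.5). Nmrk2, a kinase of NAD synthesis, was at 39.1, 28.0 and 17.3 FPKM. Of the 57 muscle-enriched genes with a range over 0.5, the HFD-veh library was lowest for 29, the HFD-ncls library for 19 and the NCD-veh library for 9. HFD-veh muscle was also the library with liver transcripts, whose part in these ranges was not tested. Without it, the median range over the remaining 2 libraries was 0.13 and 2 genes were over 2-fold. Without HFD-ncls muscle 4 genes were over 2-fold, and without NCD-veh muscle 7.

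**Figure D5:**
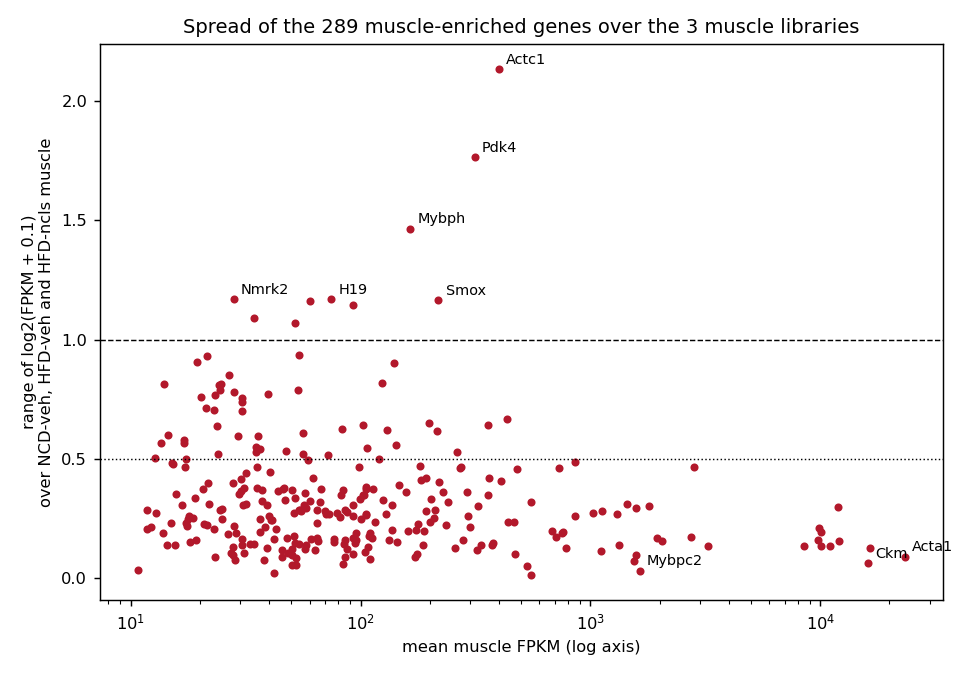
Each point is 1 of the 289 muscle-enriched genes, by mean muscle FPKM (x axis, log scale) and by the range of log2(FPKM + 0.1) over the 3 muscle libraries (y axis), with lines at 0.5 (dotted) and 1 (dashed). Most genes lie under 0.5, 10 lie over 1, and Actc1 is the highest at 2.13.

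Fast and slow fibre genes were on different footings. All 11 tested fast-twitch genes were higher than both organs and muscle-enriched, with medians of 12.56 and 13.49, a median range of 0.16 and no range over 2-fold. None of the 10 slow-twitch genes reached 10 FPKM in all 3 muscle libraries. Of these, 7 were higher than both organs and 2, Tpm3 and Atp2a2, lower than both. The median range of the 10 slow-twitch genes was 2.5, and 6 were over 2-fold. Over all 13537 genes tested the median range was 0.33, and 1116 were over 2-fold. Mean muscle levels were 1.23 to 10.1 FPKM for the slow-twitch genes and 859 to 16500 for the tested fast-twitch genes. At levels near 0 the size of a range depends on the pseudocount. Slow myosin light chain Myl2 was at 10.5, 0.735 and 16.2 FPKM, slow myosin heavy chain Myh7 at 13.4, 5.11 and 11.7 and Myl3 at 11.7, 0.807 and 9.59. HFD-veh muscle was the lowest library in these 3 genes. The count of slow genes higher than both was 7 without HFD-veh muscle and 5 without either of the other muscle libraries. The median differences of the slow genes were 2.82 from WAT and 3.99 from liver, and 4.31 and 4.76 without HFD-veh muscle. This library also carried the hepatocyte transcripts, whose part in the slow-twitch values was not tested.

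Genes expressed in muscle but far below the other organs formed the opposite end. Of the 2902 genes at 10 FPKM, 26 were at least 8-fold below both organs, and 185 were called lower than both. The 10 lowest relative to both were Scd1, Mgst1, Cyb5, Apoe, Igfbp4, Eef1a1, B2m, Gstz1, H2-K1 and Mt1. Scd1 (stearoyl-CoA desaturase, which makes monounsaturated fatty acids) was at 18.5, 43.2 and 22.7 FPKM in muscle, against 6275, 4356 and 3930 in WAT and 561, 1271 and 1333 in liver. Eef1a1, the form of the elongation factor used by most cells, was at 56.5, 75.7 and 75.6 FPKM against 1383 to 1524 in WAT and 1378 to 1434 in liver. The antigen presentation genes B2m (82.8, 112 and 89.1 FPKM) and H2-K1 (22.5, 25.4 and 24.2) were 4.35 and 4.09 lower on the log2 scale than in the nearer organ. None of these muscle libraries overlapped with another organ, but the 10 genes were picked for these differences. HFD-veh muscle, the library with liver transcripts, was the highest muscle library for all 10 genes, Scd1 included, with Apoe at 34.3, 130 and 45.5 FPKM. The part of liver transcripts in these levels was not tested. The lesser fall of Apoe was -4.70, and -5.49 without the 3 HFD-veh libraries.

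At the edges of the rule, Nr4a1 (lesser difference 3.05), Wfdc1 (3.03) and Nt5dc3 (3.07) lay just inside 8-fold, and Vamp5 (2.99), Hfe2 (2.98) and Sync (2.98) just outside. Hfe2, the iron regulator hemojuvelin, was at 285, 319 and 281 FPKM in muscle and 42.0, 31.9 and 38.7 in liver, and it was 9.87 above WAT. Kcng4, Amot and Dusp27 were just inside 10 FPKM, and Dusp26, Myod1 and 4931440F15Rik just outside. Dusp26 was at 22.4, 9.83 and 22.1 FPKM.

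A further 165 muscle-enriched genes belonged to none of the function lists, and the examples that follow were picked after their values were seen. Small heat shock proteins were among them, with Hspb6 at 793, 696 and 770 FPKM, Hspb2 at 59.2, 61.6 and 49.8, and Hspb3 at 17.2, 20.1 and 14.6. Hspb3 was listed at 0 in all WAT and liver libraries. Transcription factors of limb muscle and position included Tbx15 (76.9, 98.2 and 76.0 FPKM), Hoxc10 (53.7 to 67.2) and Lbx1 (31.7, 31.5 and 28.7). Signalling genes included the AMPK subunit Prkab2 (99.7, 90.1 and 95 FPKM) and the calcium-dependent kinase Camk2a (129, 143 and 128). The lactate exporter Slc16a3 was at 149, 105 and 106 FPKM. Spermine synthase Sms was at 34.0, 34.3 and 31.0 FPKM, with a range of 0.14, beside 1.17 for Smox of the same pathway.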

How the data were processed

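RNA from quadriceps muscle, WAT, liver and BAT was sequenced with 1 library per organ, diet and treatment. The deposited FPKM values were made by the authors with Cufflinks on RefSeq genes, from TopHat 2.0.11 alignments to the mm9 build, and read counts were not used here. No value in at least 1 of the 9 libraries was given for 82 genes. FPKM was transformed to log2(FPKM + 0.1), genes at 1 FPKM or more in at least 1 of 9 libraries were fitted with limma 3.58.1 (R 4.3.3) on organ with condition as a block and a mean-variance trend, and p-values were adjusted by Benjamini-Hochberg over 13537 genes. With no replicate of a condition, the error is the residual of organ by condition, with 1 error per gene for all organs. The test that the study's methods name starts from alignments and was not run. The fit was tested on simulated data for muscle against WAT over 13537 genes, where it found 90 of 100 genes raised 8-fold and 92 of 100 lowered 8-fold and made 5 false calls. In the simulation no other gene differed between organs, and each gene had 1 normal spread in all libraries. The real data differ in this, so these numbers do not give the error rate of the real calls. Tables and plots used Python 3.11.15, pandas 2.3.3 and matplotlib 3.10.9.

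The genes, lists and pairs were chosen with earlier results of these data known. Named were list members, the 15 largest lesser differences, the 10 largest ranges, the 5 highest levels with a range under 0.2, the 10 lowest against both organs, the 3 genes on each side of a threshold, list genes without a muscle value and members of pairs. Alternatives covered the pseudocount, filter, scaling, block, trend, thresholds and each library left out. Some list members are not reported here by name.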

Additional observations from a re-analysis of the deposited data

Results flagged for a closer look

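BAT was used in no organ test above, and its median level of fast-twitch transcripts was above that of any WAT or liver library. The median level of the 11 fast-twitch genes was 1.96% of the muscle library of the same diet and treatment in NCD-veh BAT, 0.779% in HFD-veh BAT and 0.129% in HFD-ncls BAT. The highest value in a WAT or liver library was 0.0610%, in HFD-veh liver. Myh4, without a value in muscle, was listed at 83.6, 48.6 and 6.28 FPKM in these BAT libraries. Of the 289 muscle-enriched genes, 207, 156 and 109 were at 1 FPKM or more in these BAT libraries. In the WAT libraries the counts were 105, 109 and 111. The source of the muscle transcripts in BAT was not tested.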

How the results depend on the processing

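Values below are limited by 1 library per organ and condition, by an unknown number of mice per library and by FPKM near 0, whose logarithm depends on the pseudocount. For single function lists, 91 alternative medians moved by more than their spread, 1 reversed and 68 did neither. Over all results, 824 alternative values included 108 that moved, and 518 of the 715 that did not were those of named genes. The count of genes higher in muscle than in WAT was 1226, 2311 after rescaling by the median ratio and 1931 without a limit on fold. Of 289 muscle-enriched genes, 160 remained with a minimum of 50 FPKM. With each library left out the count lay between 289 and 300, with at least 286 of the 289 genes shared. The median of the function lists was 6.40 against WAT and 4.68 with a pseudocount of 1, 7.30 with 0.01, 7.13 rescaled by the median ratio and 6.70 rescaled to an equal sum. Against liver it was 7.90, and 5.65, 9.26, 8.15 and 8.98 under the same 4 settings, with 7.78 to 8.01 when a library was left out. The median of the myokine list against WAT reversed from -0.22 to 0.59 after rescaling by the median ratio. The median range in muscle was 0.13 to 0.20, and the number of genes over 2-fold 2 to 7, when 1 muscle library was left out, since fewer libraries give smaller ranges. Without the 10 most abundant genes, muscle-enriched genes held a mean of 30.1% of summed FPKM, in place of 55.6%. The 37 genes named for a large difference, a large range or a high level kept their direction and call in all 518. They differed from both organs by at least 8-fold, far from the 2-fold limit, so this outcome was nearly fixed in advance. Among genes of the lists, 12 lost a call under at least 1 setting. The lower level of Csrp3 than in liver was also lost with a pseudocount of 0.01, after rescaling to an equal sum and without the HFD-veh libraries (adjusted p = 0.24, 0.26 and 0.20 by limma), and Sln fell below 2-fold over WAT with a pseudocount of 1. Setting the level on the mean of the muscle libraries was chosen after seeing the data. No paired analysis was possible because the labels carry no replicate numbers, beyond the block of diet and treatment that the fit already has. Without that block 1227 genes were higher in muscle than in WAT and 3123 higher than in liver.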
